A study of Mus musculus with 22 samples.

Results

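The genes described here are 10 matrix metalloproteinases, *Mmp2*, *Mmp3*, *Mmp8*, *Mmp9*, *Mmp10*, *Mmp11*, *Mmp12*, *Mmp13*, *Mmp14* and *Mmp19*, taken by symbol from 23 genes of the Mmp family among 41388 genes counted in every library. Their RNA was measured by sequencing in 22 libraries of stromal cells sorted from mouse mammary tumors. All tumors were grown from the PyMT-BO1 breast cancer line carrying GFP, in C57BL/6 mice labelled postnatal day 56, and were taken 2 weeks after inoculation; the sample labels call them orthotopic, whereas the series text calls them subcutaneous. All mice carried Osx-cre, a Cre recombinase under the *Sp7* (Osterix) promoter that doxycycline holds off, and the Ai9 reporter, which leaves TdTomato (TdT) in any cell in which the Cre has once acted and in its progeny. According to the study, Osx-cre reporter mice fed doxycycline until weaning were used in all work after its first experiments. In wild type mice nothing else was altered, and in Cdh2-cKO mice the same Cre was meant to delete *Cdh2*, the N-cadherin gene. Tumor cells were sorted away by GFP, and the rest was split by TdT and by CD45, the pan-leukocyte surface protein encoded by *Ptprc*. The 4 populations were TdT+CD45- (TdT single positive, 2 libraries per genotype), TdT+CD45+ (double positive, 3 per genotype), TdT-CD45+ (CD45 single positive, 3 per genotype) and TdT-CD45- (double negative, 3 per genotype). There were thus 10 CD45- and 12 CD45+ libraries. The comparisons ask which of the proteases were transcribed in stromal cells and which in leukocytes, whether cells of the Osx lineage differed in them from other stromal cells, and whether they differed by *Cdh2* genotype.

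Matrix metalloproteinases are zinc-dependent endopeptidases that are made as inactive proenzymes, act outside the cell or at its surface, and together cut most proteins of the extracellular matrix. The collagenases *Mmp8* and *Mmp13* cleave fibrillar collagen, the gelatinases *Mmp2* and *Mmp9* degrade denatured collagen and basement membrane, and the stromelysins *Mmp3* and *Mmp10* have a wide range of substrates. *Mmp11* is grouped with the stromelysins by name and is activated inside the cell by furin, *Mmp12* is the macrophage elastase, *Mmp14* is anchored in the membrane and activates proMmp2, and *Mmp19* lies outside these groups. In tumors they are made by fibroblasts, macrophages, neutrophils and tumor cells, and are known for remodelling of the matrix and release of growth factors bound to it.

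The 22 libraries held 16594228 to 26784003 counts, with a median of 18977040, and every one of the 10 genes had at least 15 counts in every library. Levels are given as normalized CPM, library-size scaled counts (CPM) further scaled by trimmed-mean (TMM) factors, at which 3 counts correspond to 0.103 to 0.201. The sorted populations matched their CD45 gate at the RNA level, with *Ptprc* at 2.45 to 337 in CD45- libraries and 472 to 1821 in CD45+ libraries, and the fibroblast collagen gene *Col1a1* at 1219 to 22366 against 21.3 to 68.2. The 5 epithelial genes looked at as marks of tumor cells summed to 27.3 to 1987 (median 927) in CD45- and 132 to 470.4 (median 275) in CD45+ libraries. The part of tumor cells in the levels below was not tested. The labelled lineage was not visible in its own marker, since *Sp7* and *Bglap* had no count in any of the 4 TdT+CD45- libraries. With *Alpl* and *Ibsp*, the other osteoblast genes looked at, the 4 genes summed to 1.1 to 4.61 (median 2.74) in TdT+CD45- cells. In TdT-CD45- cells they summed to 0.606 to 15.7 (median 2.39), and the 15.7 was that of Cdh2-cKO replicate 2 alone. *Cdh2* was not lower in the libraries labelled Cdh2-cKO (17.2 and 13.1 against 9.13 and 5.19 in TdT+CD45- cells), and counts over the whole gene cannot tell a transcript that lacks the deleted exons. Some values below rest on 2 libraries that stand apart. Wild type TdT-CD45- replicate 3 carried 6515 in the summed level of 6 leukocyte genes, where the other 5 double negative libraries had 191 to 980.1, and wild type TdT-CD45+ replicate 2 carried 3449.9 in the summed level of 4 B cell genes, where the other 5 had 9.03 to 16.1.

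CD45- cells carried far more *Mmp2*, *Mmp3*, *Mmp10* and *Mmp11* RNA than CD45+ cells, with medians 34.9, 92.9, 78.3 and 79.2 times as high, and 2.00 times as much *Mmp14*. CD45+ cells carried 13.1 times as much *Mmp8* and 33.2 times as much *Mmp12*. For *Mmp9*, *Mmp13* and *Mmp19* the medians of both gates differed by no more than 1.27 times. By edgeR's quasi-likelihood test with Benjamini-Hochberg adjustment over 15018 genes, 5 of the 10 genes were higher in CD45- cells, 2 were lower and 3 did not pass an adjusted p of 0.05. Of all genes tested, 31.1% were higher and 32.6% lower, so the counts alone, 5 and 2 of 10, say little about these genes. The median log2 fold change of the 10 was 0.86, beside -0.06 over all genes. The CD45- libraries all lay above the CD45+ libraries for 4 of the 10 genes (*Mmp2*, *Mmp3*, *Mmp10* and *Mmp11*), which 11% of all genes did, and all lay below them for *Mmp8*, which 3.71% did. The same 7 genes were called without the libraries that stand apart and without any single library. In these bulk samples fewer cells of a type and less RNA per cell cannot be told apart.

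**Figure D1:**
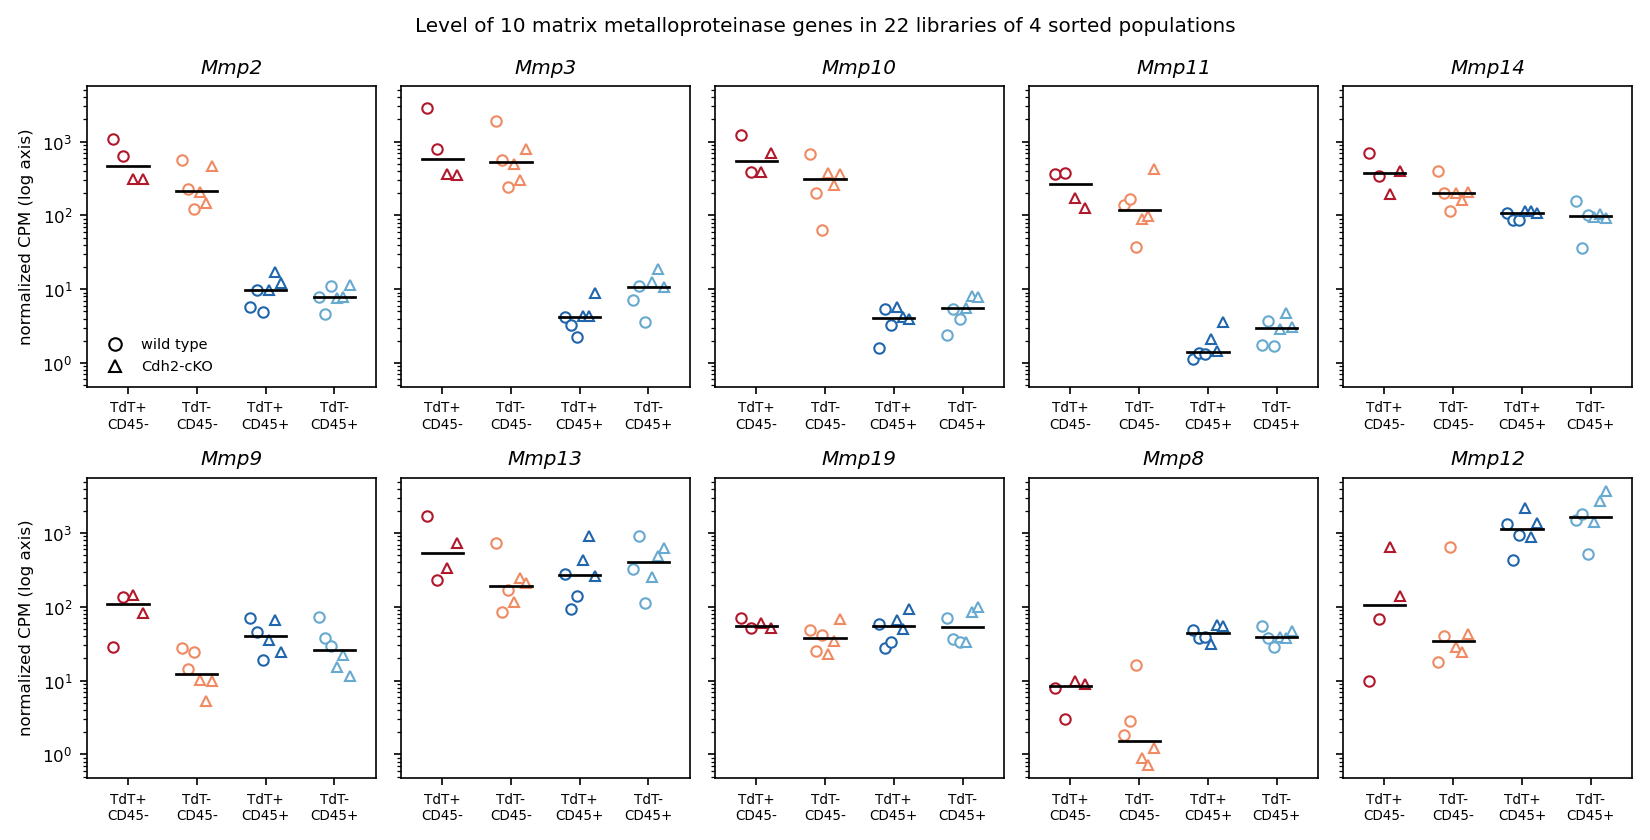
Normalized CPM (log axis) of each of the 10 genes in every library, by sorted population. Each point is a library (circles wild type, triangles Cdh2-cKO) and each line the median of a population. Mmp2, Mmp3, Mmp10 and Mmp11 separate CD45- from CD45+ libraries with no overlap, Mmp8 separates them the other way, and Mmp9, Mmp13 and Mmp19 overlap.

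Among the genes higher in CD45- cells, the gelatinase *Mmp2* had 1071 and 631 normalized CPM in the wild type TdT+CD45- libraries and 308 and 312 in the Cdh2-cKO ones. Its lowest, median and highest values were 121, 216 and 559 in TdT-CD45- cells, 4.96, 9.83 and 17.3 in TdT+CD45+ cells, and 4.58, 7.88 and 11.3 in TdT-CD45+ cells. The lowest CD45- library was thus several times above the highest CD45+ library, and both CD45+ populations overlapped. The log2 fold change of CD45- over CD45+ cells was 5.43 (SE 0.306, edgeR adjusted p = 1.9e-10), with 10 of 10 CD45- libraries above all CD45+ libraries. Relative to *Col1a1* in the same library, *Mmp2* stood at 0.0318 to 0.0992 in CD45- cells and 0.0839 to 0.484 in CD45+ cells, with medians of 0.0579 and 0.245, so the small *Mmp2* signal of CD45+ cells was larger per *Col1a1* than that of CD45- cells. Whether that signal came from stromal cells that passed the CD45 gate was not tested.

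The stromelysins showed the widest separation. *Mmp3* was at 2811 and 796 in wild type and 359 and 358 in Cdh2-cKO TdT+CD45- cells, with a range of 239 to 1920.3 and a median of 532 in TdT-CD45- cells. Its lowest, median and highest values were 2.22, 4.21 and 8.9 in TdT+CD45+ cells and 3.56, 10.8 and 18.5 in TdT-CD45+ cells. Its log2 fold change of 6.82 (SE 0.405, edgeR adjusted p = 3.45e-10) was the largest of the 10 genes. *Mmp10*, the neighbouring stromelysin gene, had 1245, 390.2, 382 and 692 in the 4 TdT+CD45- libraries and 62.4 to 677 in TdT-CD45- cells, and no CD45+ library exceeded 8.09. The log2 fold change was 6.65 (SE 0.4, edgeR adjusted p = 3.79e-10). *Mmp11* was at 37.8 to 426 in the 10 CD45- libraries and 1.13 to 4.68 in the 12 CD45+ libraries, a log2 fold change of 6.40 (SE 0.354, edgeR adjusted p = 1.61e-10). For all 3 genes the lowest of the CD45- libraries was wild type TdT-CD45- replicate 3, the library rich in leukocyte RNA, and without it and wild type TdT-CD45+ replicate 2 the log2 fold changes were 7.11, 6.91 and 6.68.

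The membrane-type protease *Mmp14* was higher in CD45- cells by a smaller margin. It had 706, 338, 195 and 401 normalized CPM in the TdT+CD45- libraries and 116 to 394 in TdT-CD45- cells, against 86.5 to 116 in TdT+CD45+ and 36.6 to 159 in TdT-CD45+ cells. Of the 10 CD45- libraries 9 lay above every CD45+ library, and the exception was again wild type TdT-CD45- replicate 3. The log2 fold change was 1.53 (SE 0.238, edgeR adjusted p = 2.81e-05). Unlike *Mmp2*, its activation target, *Mmp14* was at a level of about 100 in most CD45+ libraries, with a median of 102.

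*Mmp12*, the macrophage elastase, was the most abundant of the 10 genes in CD45+ cells. Its lowest, median and highest values were 432, 1131 and 2211 in TdT+CD45+ cells and 519.7, 1667 and 3699 in TdT-CD45+ cells. In TdT+CD45- cells it was at 9.95 and 68.1 in wild type and 649 and 141 in Cdh2-cKO libraries, and the TdT-CD45- libraries covered 17.9 to 651 around a median of 34.6. Of the 10 CD45- libraries 8 lay below every CD45+ library. The exceptions were Cdh2-cKO TdT+CD45- replicate 1, at 649, and wild type TdT-CD45- replicate 3, at 651, and these had the highest *Ptprc* of the CD45- libraries, 164 and 337. The log2 fold change was -3.81 (SE 0.615, edgeR adjusted p = 4.14e-05), and -4.41 without the libraries that stand apart. The ratio of *Mmp12* to *Ptprc* in the same library covered 0.838 to 4.06 in CD45- cells, with a median of 2.5, and 0.673 to 6.44 in CD45+ cells, with a median of 2.23. The ratios of both gates covered much the same range, while the level of *Mmp12* itself ran from 9.95 to 3699.

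The collagenase *Mmp8*, best known from neutrophils, was lower in abundance and followed the same gate. It had 28.6 to 56.2 normalized CPM in the 12 CD45+ libraries, 8.01, 3.06, 9.9 and 9.02 in TdT+CD45- cells and 0.727 to 16.3 in TdT-CD45- cells. The groups did not overlap, and the highest CD45- value, 16.3, was again that of wild type TdT-CD45- replicate 3. The log2 fold change was -3.30 (SE 0.34, edgeR adjusted p = 2.73e-07). Its ratio to *Ptprc* was 0.021 to 0.113 in CD45+ cells and had a median of 0.0851 in CD45- cells, but reached 3.27 in wild type TdT+CD45- replicate 1 and 0.412 in wild type TdT-CD45- replicate 1, the libraries with the least *Ptprc* (2.45 and 4.46). The neutrophil marker genes were few in these cells, with a summed level of 6 genes of 38.6 to 848 in CD45+ libraries, where 6 macrophage genes summed to 3583 to 15943. The 848 was that of wild type TdT-CD45+ replicate 2 alone, where *Mmp8* was 38.2, and the other CD45+ libraries had neutrophil sums of 38.6 to 95.9. *S100a8*, 1 of the 6 neutrophil genes, was at 8.3 to 42.1 in CD45+ cells. The part of neutrophils in the *Mmp8* level was not tested.

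**Figure D2:**
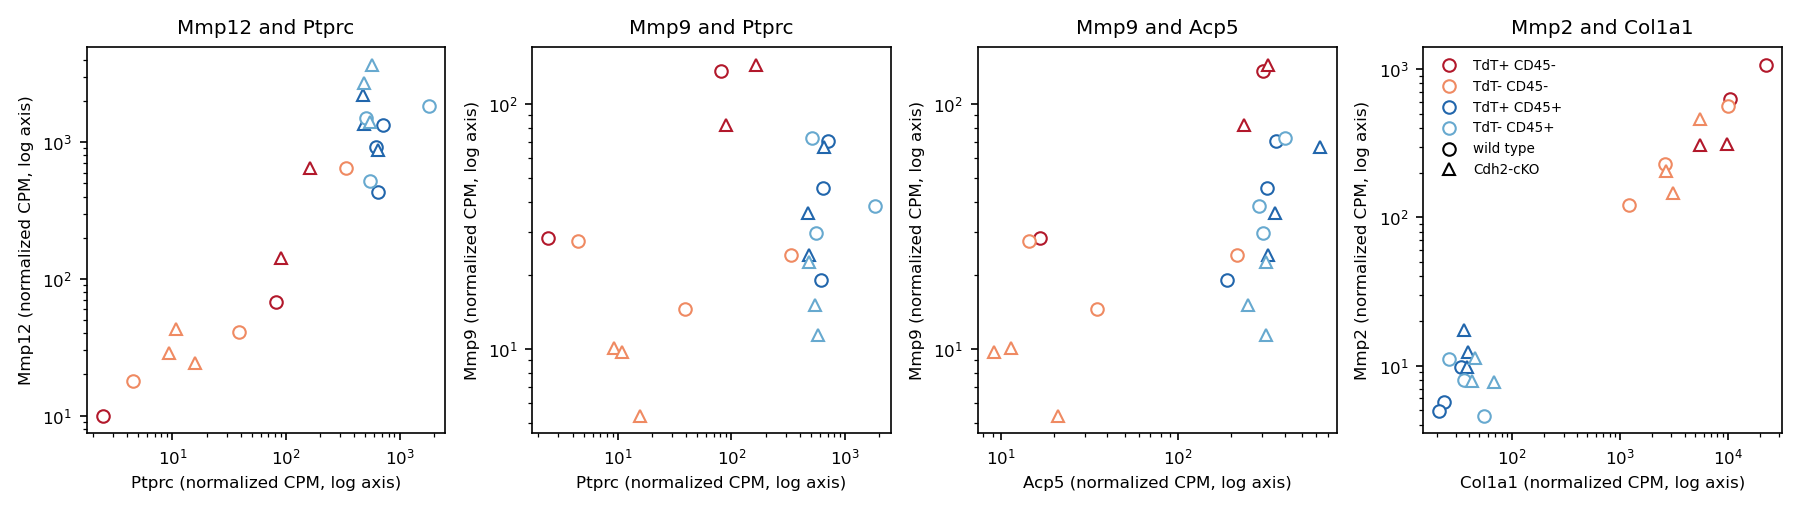
Level of Mmp12 and Mmp9 against Ptprc, of Mmp9 against the macrophage and osteoclast phosphatase gene Acp5, and of Mmp2 against Col1a1, in normalized CPM on log axes. Each point is a library, colored by population and shaped by genotype. Mmp12 rises with Ptprc from 9.95 to 3699, Mmp9 is highest in 3 TdT+CD45- libraries of intermediate Ptprc, and Mmp2 splits into a high and a low cluster with Col1a1.

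*Mmp9*, *Mmp13* and *Mmp19* did not pass the test between CD45- and CD45+ cells over all libraries. *Mmp9*, the gelatinase of macrophages, neutrophils and osteoclasts, was at 28.3 and 136 in wild type and 145 and 81.8 in Cdh2-cKO TdT+CD45- cells. Its lowest, median and highest values were 5.33, 12.3 and 27.5 in TdT-CD45- cells, 19.2, 40.8 and 70.8 in TdT+CD45+ cells, and 11.4, 26.2 and 72.4 in TdT-CD45+ cells. The CD45+ populations therefore lay between both CD45- populations, and the log2 fold change of 0.06 (SE 0.297, edgeR adjusted p = 0.875) averages unlike values. The collagenase *Mmp13* was abundant everywhere, at 86.1 to 1709 in CD45- and 93.2 to 909.9 in CD45+ cells, with a log2 fold change of 0.19 (SE 0.441, edgeR adjusted p = 0.721) and a wide spread within each population. Its highest values in TdT+CD45- cells and in TdT-CD45- cells, 1709 and 724, were both those of wild type replicate 1, the replicates with the least *Ptprc*. *Mmp19* varied little, at 23.3 to 71 in CD45- and 27.6 to 101 in CD45+ cells, with a log2 fold change of -0.21 (SE 0.239, edgeR adjusted p = 0.455). Exons of *Mmp19* overlap those of the antisense gene *Tmem198b* by 789 bases, and *Mmp12* overlaps the antisense gene *Mmp1b* by 157 bases. *Mmp1b* had 107 counts over all libraries, and reads in the *Mmp19* overlap cannot be assigned because the strand setting of the counting is not given in the sources used here.

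When the CD45 gate was compared separately in TdT+ and in TdT- cells, the same 5 genes were higher and *Mmp8* and *Mmp12* lower in both. In TdT+ cells 27% of all genes were higher and 22.7% lower in the CD45- part, and in TdT- cells 26.1% were higher and 27.4% lower. The log2 fold changes in TdT+ cells were 5.76 for *Mmp2*, 7.54 for *Mmp3*, 7.38 for *Mmp10*, 7.08 for *Mmp11*, 1.94 for *Mmp14*, -2.62 for *Mmp8* and -3.22 for *Mmp12*. In TdT- cells they were 5.09, 6.10, 5.92, 5.72, 1.12, -3.98 and -4.40 in the same order. By edgeR the adjusted p of these 14 values was at most 0.00727, the value of *Mmp14* in TdT- cells. Among the wild type libraries alone 4 of the 8 calls in TdT- cells were lost, those of *Mmp9* (-1.08, edgeR adjusted p = 0.27), *Mmp8* (-2.53, edgeR adjusted p = 0.0501), *Mmp12* (-2.44, 0.209) and *Mmp14* (1.27, 0.159), as were those of *Mmp12* (-4.52, 0.0717) and *Mmp9* (0.86, 0.372) in TdT+ cells.

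*Mmp9*, *Mmp13* and *Mmp19* had CD45 differences of opposite sign in TdT+ and TdT- cells, and of these *Mmp9* was the gene that passed in both. In TdT+ cells it was higher in the CD45- part, by a log2 fold change of 1.14 (SE 0.434, edgeR adjusted p = 0.0375), with 3 of 4 libraries above all TdT+CD45+ libraries. In TdT- cells it was lower in the CD45- part, by -1.02 (SE 0.401, edgeR adjusted p = 0.04). The difference between both effects was 2.16 (SE 0.591) with an edgeR adjusted p of 0.39, so it is not shown to differ between TdT+ and TdT- cells once all genes are taken into account. Of all genes 0.00666% were called in that test, and 0 of the 10 genes. Under an unadjusted p of 0.05 were 6 of 10, a count given without the share of all genes under that p. DESeq2 and limma with voomWithQualityWeights also called 0 of 10. Without the libraries that stand apart *Mmp8* alone passed this test of the difference (2.16, edgeR adjusted p = 0.0325), and within Cdh2-cKO alone 2 of the 10 genes did. The share of all genes called in these settings is not given here. Both *Mmp9* calls were lost when single libraries were left out. In TdT+ cells the values were 0.38 (adjusted p = 0.496) without wild type TdT+CD45- replicate 2, 1.14 (0.0607) and 0.96 (0.0796) without wild type TdT+CD45+ replicates 2 and 3, 0.90 (0.142) without Cdh2-cKO TdT+CD45- replicate 1, and 1.09 (0.0711) and 1.0 (0.0822) without Cdh2-cKO TdT+CD45+ replicates 1 and 3. In TdT- cells they were -0.79 (0.117) without wild type TdT-CD45+ replicate 1, -0.91 (0.0939) and -0.98 (0.0724) without wild type TdT-CD45- replicates 2 and 3, -1.05 (0.0544) and -0.87 (0.097) without Cdh2-cKO TdT-CD45+ replicates 1 and 2, and -0.90 (0.0928) and -1.08 (0.0528) without Cdh2-cKO TdT-CD45- replicates 2 and 3. *Mmp13*, at 1.25 in TdT+ and -0.87 in TdT- cells, and *Mmp19*, at 0.13 and -0.55, did not pass in either. *Mmp13* passed by edgeR at 1.66 (adjusted p = 0.0468) without wild type TdT+CD45- replicate 2 and at -1.54 (0.0372) without wild type TdT-CD45- replicate 1. *Mmp19* passed in TdT- cells at -0.82 (0.0387) without Cdh2-cKO TdT-CD45- replicate 3, and at -0.82 (adjusted p = 0.0466) by voomWithQualityWeights, the test of the study's methods.

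**Figure D3:**
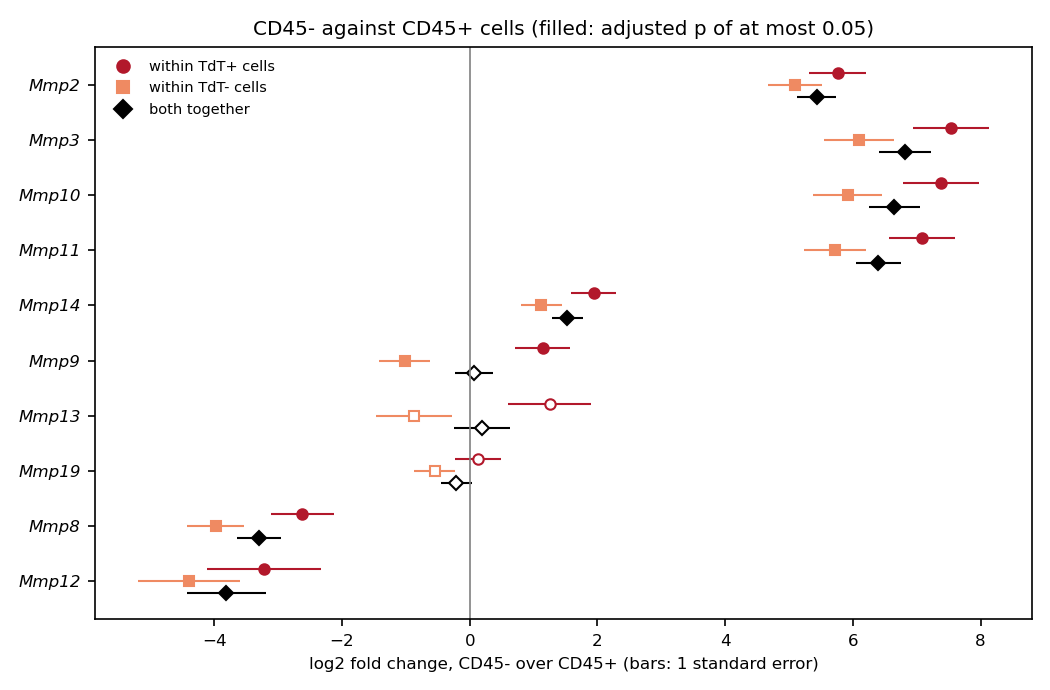
Log2 fold change of CD45- over CD45+ cells (horizontal axis) for each gene, within TdT+ cells (circles), within TdT- cells (squares) and for both together (diamonds). Bars are 1 standard error and filled symbols have an edgeR adjusted p of at most 0.05. Mmp2, Mmp3, Mmp10 and Mmp11 lie beyond 5 in all 3 comparisons, and Mmp9 at 1.14 and -1.02 on either side of 0.

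Per length the make-up of the transcripts differed sharply between the gates. Each level was divided by the gene length in the files (RPKM), and each gene taken as a share of the sum over the 10 genes. In TdT-CD45- cells *Mmp3* made up 29 to 49.8% of the sum and *Mmp10* 8.09 to 29.7%, and in TdT+CD45- cells *Mmp3* made up 16 to 42% and *Mmp10* 17.4 to 32.4%. *Mmp12* held 0.115 to 20.1% in TdT-CD45- cells, with a median of 0.564%, and 0.0369 to 9.51% in TdT+CD45- cells, with a median of 1.15%. In CD45+ cells *Mmp12* had the highest median share, with 21.2 to 54.2% in TdT+ and 37.6 to 60.2% in TdT- cells, followed by *Mmp13* with medians of 25.6% and 27%. In Cdh2-cKO TdT+CD45+ replicate 2 and wild type TdT-CD45+ replicate 2 *Mmp13* was ahead, at 59.3% and 51.6%, and in all CD45+ libraries *Mmp3* made up no more than 1.87%. The summed RPKM was 943 to 3725 in TdT+CD45-, 448 to 2146 in TdT-CD45-, 173 to 573 in TdT+CD45+ and 191 to 848 in TdT-CD45+ cells.

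By median RPKM the order in TdT+CD45- cells was *Mmp3* (321), *Mmp10* (315), *Mmp13* (199.7), *Mmp2* (155), *Mmp14* (142), *Mmp11* (104), *Mmp9* (30.7), *Mmp19* (16.3), *Mmp12* (14.5) and *Mmp8* (3.47). Neighbours in this order overlapped, except that every library had *Mmp11* above the range of *Mmp9*. In TdT-CD45- cells the order began with *Mmp3* (296), *Mmp10* (181) and *Mmp14* (77.5), ended with *Mmp12* (4.79), *Mmp9* (3.47) and *Mmp8* (0.621), and all neighbours overlapped. In TdT+CD45+ cells it was led by *Mmp12* (156), *Mmp13* (101) and *Mmp14* (41.3), the last of which did not overlap *Mmp8* (17.9), and ended with *Mmp11* (0.545). In TdT-CD45+ cells *Mmp12* (230.3), *Mmp13* (153) and *Mmp14* (37.8) led again, all neighbours overlapped, and *Mmp11* was last (1.16).

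**Figure D4:**
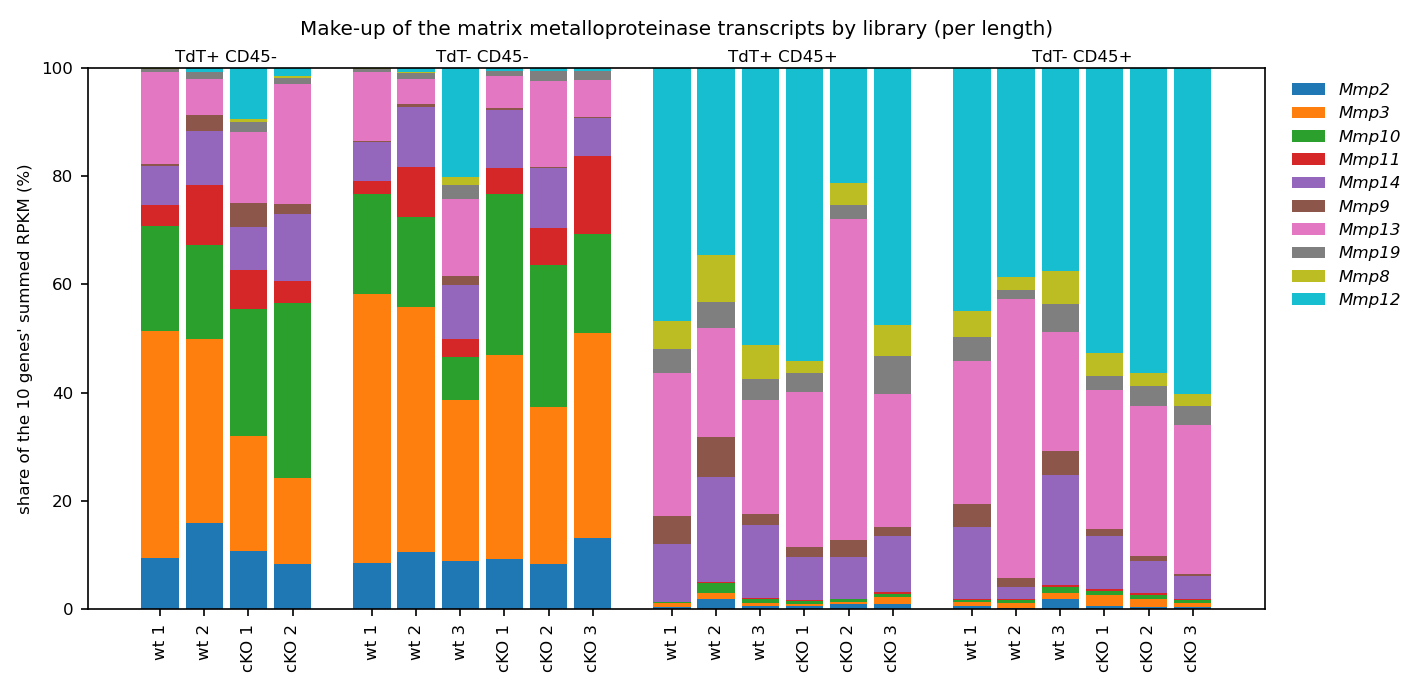
Share of each gene in the summed RPKM of the 10 genes (percent, vertical axis) for each library, grouped by population. Each bar is a library, labelled by genotype and replicate number. Mmp3 and Mmp10 fill much of the CD45- bars and Mmp12 and Mmp13 the CD45+ bars, and the CD45- bar with the largest Mmp12 share, 20.1%, is wild type TdT-CD45- replicate 3.

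Within CD45- cells, the comparison of TdT+ with TdT- cells asks whether stroma of the Osx lineage differs from the rest. *Mmp9* was the only one of the 10 genes to pass, with a log2 fold change of 2.82 (SE 0.446, edgeR adjusted p = 0.00549), where 1.23% of all genes were higher and 0.659% lower. Its values of 28.3 to 145 in the 4 TdT+ libraries lay above the 5.33 to 27.5 of the 6 TdT- libraries, the nearest pair being 28.3 and 27.5. Leaving out any one library gave 2.06 to 3.19, always called, while within wild type alone the difference was 1.89 (SE 0.691, edgeR adjusted p = 0.511) and within Cdh2-cKO alone 3.75 (SE 0.459, 0.000233). *Acp5*, the tartrate-resistant phosphatase of macrophages and osteoclasts, rose with *Mmp9* among the 4 TdT+CD45- libraries. It was 16.6 in the TdT+CD45- library with 28.3 of *Mmp9* and 304, 320.3 and 237 in those with 136, 145 and 81.8, and its log2 fold change was 2.59 (SE 0.643, edgeR adjusted p = 0.0477). The 6 macrophage genes summed to 72.4 to 6101 in TdT+CD45- and 103 to 8289.7 in TdT-CD45- libraries, and all 6 had counts in every library. *Mmp9* per *Ptprc* was 0.885 to 11.5 in TdT+CD45- cells and 0.0198 to 0.142 in CD45+ cells, and per *Acp5* 0.345 to 1.7 against 0.0363 to 0.197. Cells were sorted on the protein that *Ptprc* encodes, so a higher ratio to *Ptprc* in CD45- libraries is in part set by the gate. The TdT-CD45- libraries, at 0.072 to 6.16 per *Ptprc* and 0.112 to 1.89 per *Acp5*, overlapped the TdT+CD45- libraries and in part lay below them, and the lowest, wild type replicate 3, fell within the range of CD45+ libraries for both ratios. The 4 osteoclast genes looked at (*Acp5*, *Ctsk*, *Calcr* and *Ocstamp*) summed to 856 to 1195 in TdT+CD45-, 244 to 739 in TdT-CD45- and 255 to 819 in CD45+ libraries. The sum did not follow *Mmp9*, since its highest value, 1195, was that of wild type TdT+CD45- replicate 1, with 28.3 of *Mmp9* and 16.6 of *Acp5*. *Calcr* had no count there, so nearly all of that sum was *Ctsk* and *Ocstamp*. The same library had the highest sum of the fibroblast genes, 59529. Which cells the *Ctsk* and *Ocstamp* RNA came from was not tested, so the sum is no clear measure of osteoclasts. The defining gene *Calcr* was at or near 0 in all libraries (at most 0.155). The part of macrophages or osteoclasts in the *Mmp9* difference was not tested, and these ratios cannot settle it.

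The other 9 genes all had positive log2 fold changes in TdT+ over TdT- cells of the CD45- gate, from 0.22 for *Mmp3* to 1.54 for *Mmp13*, and none passed. *Mmp13* was 0.51 without wild type TdT+CD45- replicate 1, and *Mmp3* was -0.37 without that library and -0.01 without wild type TdT-CD45- replicate 3. The median of the 10 was 0.87, beside 0.07 over all genes. *Mmp8*, at 1.49 (SE 0.452, edgeR adjusted p = 0.0918), and *Mmp12*, at 0.51 (SE 0.769, 0.749), depended on wild type TdT-CD45- replicate 3. Without it they were 2.27 (SE 0.296, edgeR adjusted p = 0.00174) and 2.02 (SE 0.58, 0.05), and 3 of the 10 genes were called instead of 1. The share of all genes called without that library is not given here. *Mmp12* was -0.47 without wild type TdT+CD45- replicate 2 and -0.23 without Cdh2-cKO TdT+CD45- replicate 1. *Mmp8* was also called by DESeq2 (1.5, adjusted p = 0.0236) and voomWithQualityWeights (1.91, 0.0433), while in wild type alone *Mmp8* was at -0.34 and *Mmp12* at -2.60. *Mmp10*, at 1.04 (SE 0.479, edgeR adjusted p = 0.25), passed at 1.66 (0.0359) without wild type TdT-CD45- replicate 1, and 2 genes were then called. In the CD45+ gate the comparison of TdT+ with TdT- cells gave 0 of 10 genes called by edgeR, voomWithQualityWeights or DESeq2, 1 of 10 under an unadjusted p of 0.05 and 0.00666% of all genes called. That gene was *Mmp3*, with a log2 fold change of -1.21 (SE 0.458, edgeR adjusted p = 1).

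Between genotypes none of the 10 genes passed in any population by edgeR. The share of all genes called was 0.00666% in TdT+CD45- cells and 0% in the TdT+CD45+, TdT-CD45+ and TdT-CD45- cells. An unadjusted p under 0.05 was seen for 3 genes in TdT+CD45- cells, 0 in TdT+CD45+, 1 in TdT-CD45+ and 3 in TdT-CD45- cells. The share of all genes under that p is not given here, and the shares called after adjustment are no measure for these counts. voomWithQualityWeights called 0 in each, and DESeq2 called 1, *Mmp8* in TdT-CD45- cells. There were 2 or 3 libraries per group, with standard errors of 0.448 to 1.32 on the log2 scale. Log2 fold changes as large as 3.34 (*Mmp12* in TdT+CD45- cells) and -2.87 (*Mmp8* in TdT-CD45- cells) did not pass. The lack of calls therefore does not show that genotype differences, even large ones, were absent.

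The largest genotype differences lay in the CD45- populations. *Mmp8* in TdT-CD45- cells was 1.84, 2.87 and 16.3 in wild type and 0.894, 0.727 and 1.21 in Cdh2-cKO libraries, at a log2 fold change of -2.87 (SE 0.629, edgeR adjusted p = 0.18). DESeq2 gave -2.79 (adjusted p = 0.0015), and edgeR passed it at -3.33 (0.0146) and -3.24 (0.0492) when wild type replicate 1 or 2 was left out. Without wild type replicate 3, the library rich in leukocyte RNA, it was -1.28 and not called (edgeR adjusted p = 1). The 6 leukocyte genes summed to 191, 980.1 and 6515 in the wild type and 335, 367 and 457 in the Cdh2-cKO libraries, so in that sum the genotypes overlapped. *Mmp12* in the same cells was 17.9, 40.7 and 651 against 28.6, 24.3 and 43.1, a log2 fold change of -2.89 (SE 1.05, edgeR adjusted p = 0.275) that became 0.15 without wild type replicate 3. In TdT+CD45- cells *Mmp12* pointed the other way, 649 and 141 in Cdh2-cKO against 9.95 and 68.1 in wild type, at 3.34 (SE 1.32, edgeR adjusted p = 0.416), or 1.86 without Cdh2-cKO replicate 1 and 5.31 without wild type replicate 2, and there the leukocyte sum was 1982 to 4649 against 216 to 1782. *Mmp3*, at 359 and 358 against 2811 and 796, had -2.33 (SE 0.796, edgeR adjusted p = 0.357), or -1.15 without wild type replicate 1, and *Mmp2*, at 308 and 312 against 1071 and 631, had -1.46 (SE 0.621, 0.439). The fibroblast genes, 8 in number, summed to 13671 and 28472 in those Cdh2-cKO libraries and to 32065 and 59529 in wild type. The part of cell makeup in these differences was not tested. In TdT-CD45+ cells *Mmp9* was at 72.4, 38.3 and 29.7 in wild type and 15.1, 22.6 and 11.4 in Cdh2-cKO libraries, at -1.52 (SE 0.572, edgeR adjusted p = 0.43). The test of whether the CD45 effect differed by genotype gave 0 of 10 genes called by edgeR, DESeq2 or voomWithQualityWeights, 0% of all genes called and 2 of 10 under an unadjusted p of 0.05.

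**Figure D5:**
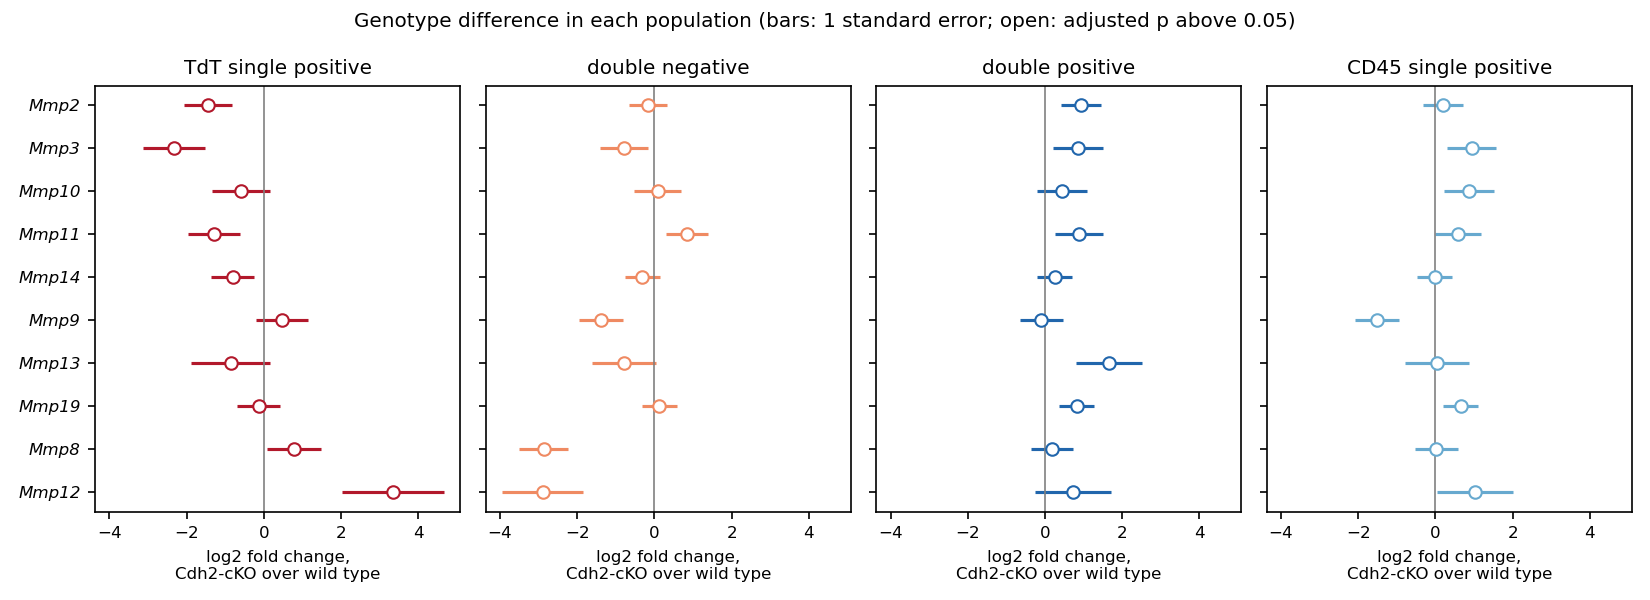
Log2 fold change of Cdh2-cKO over wild type for each gene in the 4 populations. Bars are 1 standard error and all symbols are open because no adjusted p by edgeR was at or under 0.05. Mmp12 lies at 3.34 in TdT+CD45- and -2.89 in TdT-CD45- cells, and the CD45+ populations stay between -1.52 and 1.65.

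Of the 10 genes 5 sit side by side on mouse chromosome 9 (GRCm38), within 296 kb. In the files *Mmp13* spans 9:7272514-7283333, *Mmp12* 9:7344381-7369499, *Mmp3* 9:7445822-7455972, *Mmp10* 9:7502352-7510238 and *Mmp8* 9:7558429-7568486, all on the plus strand, with *Mmp1b* on the minus strand between *Mmp12* and *Mmp3*. Along this run the genes alternated in where they were read out. *Mmp13* was found in all populations, *Mmp12* in CD45+ cells, *Mmp3* and *Mmp10* in CD45- cells and *Mmp8* again in CD45+ cells, although the gap between *Mmp10* and *Mmp8* is 48.2 kb. The other members lie apart, *Mmp2* on chromosome 8 (92827328-92853417), *Mmp9* on chromosome 2 (164940780-164955850), *Mmp11* on chromosome 10 (75923222-75932502, minus strand), *Mmp19* on chromosome 10 (128790953-128800824) and *Mmp14* on chromosome 14 (54431604-54441258). Each count covers all annotated exons of the gene.

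The starts of the genes in the run are shown because neighbours differed by sorted population. RefSeq promoter windows on GRCm38.p6, 250 bases before and 50 after a start, were at hand for 7 of the 10 genes. Both strands were searched for the AP-1 letters TGANTCA, the ETS letters AGGAAG and the TATA letters TATAAA, and in the 4 windows printed 5′ to 3′ on the plus strand the AP-1 and TATA letters are in capitals. The windows are chr9:7445572-7445871 for *Mmp3*, chr9:7502092-7502391 for *Mmp10*, chr9:7347124-7347423 for *Mmp12* (the later of its listed starts) and chr9:7558179-7558478 for *Mmp8*.
Mmp3: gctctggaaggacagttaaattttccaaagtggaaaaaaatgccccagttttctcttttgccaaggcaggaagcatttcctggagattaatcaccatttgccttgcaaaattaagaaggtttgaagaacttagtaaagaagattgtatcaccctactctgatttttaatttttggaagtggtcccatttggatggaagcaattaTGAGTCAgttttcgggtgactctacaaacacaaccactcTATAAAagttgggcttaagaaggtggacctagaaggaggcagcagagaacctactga
Mmp10: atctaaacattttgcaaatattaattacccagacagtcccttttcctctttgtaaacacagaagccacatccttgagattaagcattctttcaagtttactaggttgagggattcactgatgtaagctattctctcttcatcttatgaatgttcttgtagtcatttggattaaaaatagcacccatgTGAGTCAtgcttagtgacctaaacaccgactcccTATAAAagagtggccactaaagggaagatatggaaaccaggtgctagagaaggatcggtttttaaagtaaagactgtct
Mmp12: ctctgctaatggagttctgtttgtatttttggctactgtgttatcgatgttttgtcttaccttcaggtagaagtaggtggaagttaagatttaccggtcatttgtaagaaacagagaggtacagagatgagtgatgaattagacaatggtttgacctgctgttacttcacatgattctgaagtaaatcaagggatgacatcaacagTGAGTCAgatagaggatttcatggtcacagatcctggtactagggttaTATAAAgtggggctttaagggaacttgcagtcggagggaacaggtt
Mmp8: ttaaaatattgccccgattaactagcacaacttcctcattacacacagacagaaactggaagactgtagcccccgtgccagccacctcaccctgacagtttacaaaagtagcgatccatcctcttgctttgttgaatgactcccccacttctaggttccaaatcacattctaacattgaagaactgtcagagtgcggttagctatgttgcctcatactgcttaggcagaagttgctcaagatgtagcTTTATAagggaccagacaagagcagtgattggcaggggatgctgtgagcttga
The AP-1 letters stood at -46 to -40 from the start in *Mmp3*, -63 to -57 in *Mmp10* and -44 to -38 in *Mmp12*, as TGAGTCA in each, and at -35 to -29 in *Mmp13* as TGACTCA. They were in a window of 4 of the 7 genes and in 7.81% of 32817 distinct windows of all genes. *Mmp8*, *Mmp11* and *Mmp14* had no AP-1 match in theirs. Nor had the earlier *Mmp12* window, chr9:7344147-7344446, in which only the ETS letters were found. The 8 windows of the 7 genes are counted here by gene, whereas the 7.81% is a share of windows. The TATA letters were in a window of 5 of the 7 genes and 13.6% of all windows, and the ETS letters in 5 of 7 and 35.4%. From the listed start the TATA letters lay at -29 to -24 in *Mmp10*, -16 to -11 in *Mmp13* and -7 to -2 in *Mmp3*. They lay at -3 to 2 in *Mmp8*, on the minus strand, and at 4 to 9 in *Mmp12*, after the start. Whether any of them works as a TATA box was not tested. No AP-1 and TATA match overlapped. The AP-1 letters were thus shared by genes high in CD45- cells (*Mmp3* and *Mmp10*), in CD45+ cells (*Mmp12*, in its later window only) and in both (*Mmp13*).

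Of the other 13 genes of the family, 8 passed the filter on low counts, and 6 were higher and 1 lower in CD45- cells, beside 31.1% and 32.6% of all genes. *Mmp23* had a log2 fold change of 7.26 (SE 0.461, edgeR adjusted p = 6.94e-10), at 7.32 to 86.4 in CD45- libraries and no more than 0.458 in CD45+ ones. *Mmp16*, a membrane-type protease, had 4.88 (edgeR adjusted p = 1.05e-07), at 1.74 to 18.5 in CD45- libraries. *Mmp25*, a membrane-anchored protease known from leukocytes, was lower, at -2.36 (SE 0.762, edgeR adjusted p = 0.0119), with a level of 38.3 in wild type TdT-CD45+ replicate 2 and 0.323 to 8.44 in the other CD45+ libraries. The counts of the remaining 5 were 0 for *Mmp7*, 3 for *Mmp20*, 19 for *Mmp24*, 22 for *Mmp21* and 107 for *Mmp1b* over all libraries.

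Of 6 genes listed as inhibitors of the proteases 5 were tested and all 5 were higher in CD45- cells, where 31.1% of all genes were higher and 32.6% lower. They were the tissue inhibitors *Timp1* (3.06, SE 0.273, edgeR adjusted p = 4.72e-08), *Timp2* (0.98, SE 0.2, 0.000382) and *Timp3* (6.53, SE 0.378, 2.54e-10), the membrane-bound inhibitor *Reck* (2.55, 0.000815) and the protease trap *A2m* (5.71, SE 0.854, 1.9e-05). *Timp3* was at 99.4 to 432 in CD45- and 0.481 to 6.96 in CD45+ libraries. Of 8 activators and inducers, 7 were tested, 4 were higher and 2 lower. *Plat*, the tissue plasminogen activator gene, had 5.78 (SE 0.325, edgeR adjusted p = 1.84e-10), and the proprotein convertase genes *Pcsk5* and *Pcsk6* had 7.28 and 6.53. *Bsg*, which encodes the MMP inducer basigin, had 0.63 (SE 0.138, edgeR adjusted p = 0.000746). *Furin*, the convertase that activates *Mmp11* and *Mmp14*, was lower at -1.56 (SE 0.212, edgeR adjusted p = 6.83e-06), as was the urokinase receptor gene *Plaur* at -1.46 (SE 0.229, 3.04e-05). The medians were 3.06 for the inhibitors, 0.63 for the activators and inducers and 3.99 for the other family genes, beside -0.06 over all genes. None of the inhibitor, activator or other family genes passed between TdT+ and TdT- cells of the CD45- gate by edgeR, where 0 inhibitors, 1 activator and 1 other gene had an unadjusted p under 0.05. DESeq2 called none of them and voomWithQualityWeights called 2, *Pcsk5* and *Mmp1a*.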

How the data were processed

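RNA of 22 sorted stromal libraries was analysed. According to the study's methods, cDNA was amplified before single-end sequencing, and reads were aligned by the authors with STAR 2.0.4b to GRCm38 and counted per gene with featureCounts, uniquely placed and unambiguous reads only. The deposited files hold counts, CPM (scaled to the library total by the authors) and RPKM (CPM per gene length, by the authors), and the deposited CPM and RPKM were rebuilt from the counts to within a relative deviation of 5.1e-14. Per the labels, libraries were those that passed a check of RNA integrity, and where labels do not name the mouse, p-values measure the spread between libraries only. Amplified reads without molecular identifiers are not independent molecules, so the floor of 3 counts covers counting error only.

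Genes above 1 CPM in at least 2 libraries were kept and 355 rRNA genes, at most 5.28% of counts, left out, which left 15018. Counts were tested with edgeR 4.0.16 in R 4.3.3 (TMM factors, quasi-likelihood test, means of the 8 groups fitted over all 22 libraries), with Benjamini-Hochberg adjustment and a threshold of 0.05. All adjusted p-values are edgeR's unless another tool is named. Counts of genes under an unadjusted p of 0.05 are given without the share of all genes under it, so they are no measure of an excess. The study's own test, limma 3.58.1 with voomWithQualityWeights, was an alternative, as were DESeq2 1.42.0, RLE factors, no filter, a log2 fold change of at least 2, a replicate block, leaving out the 2 libraries that stand apart, either genotype alone, and leaving out each library in turn. The edgeR step was tested on simulated data. Replicates differed by more than sampling noise (chi-square per degree of freedom 49.7 to 408.9), so none was the same library sequenced again. This chi-square covers counting error only and cannot tell separate mice from separate amplifications of the same RNA. Named genes are the 10 proteases in every comparison, and lists of other family genes, inhibitors, activators and cell type markers. The genes and lists were chosen with earlier results of these data known. RefSeq promoter windows came from GRCm38.p6.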

Additional observations from a re-analysis of the deposited data

Results flagged for a closer look

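Dixon's test at the 95% level, in 40 tests of a gene in a population of 4 or 6 libraries, flagged 2 libraries, where chance flags about 1 in 20. *Mmp12* was 651 normalized CPM in wild type TdT-CD45- replicate 3 and 17.9 to 43.1 in the other 5 libraries of that population. *Mmp14* was 36.6 in wild type TdT-CD45+ replicate 2, the library rich in B cell RNA, and 93.3 to 159 in the other 5.

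The genotype effect of each of the 10 genes was compared in every pair of the 4 populations. It pointed in opposite directions, without overlap of the genotypes, in 3 cases. The share of all genes with such a pattern was not counted. All 3 cases involve TdT+CD45- cells, where 2 libraries per genotype can easily fail to overlap by chance. For *Mmp11* it was -2.19 (SE 0.917, edgeR adjusted p = 0.67) in TdT+CD45- minus TdT+CD45+ cells on the log2 scale, and for *Mmp3* -3.19 (SE 1.02, edgeR adjusted p = 0.584). For *Mmp8* the TdT+CD45- minus TdT-CD45- difference was 3.65 (SE 0.939, edgeR adjusted p = 0.128). None of the 3 passed the correction over all genes, and these pairs were picked after their values were seen.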

How the results depend on the processing

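Of 47 gene results, 24 were called; over their 744 alternative values 0 reversed and 30 lost the call. Of the 23 uncalled results 10 changed sign in some setting, and the cause was not tested. In CD45- against CD45+ cells, *Mmp9* was -0.11 and *Mmp19* 0.16 in wild type alone, and *Mmp13* -0.01 by voomWithQualityWeights, -0.13 with the replicate block and -0.58 in Cdh2-cKO alone; leaving out single libraries gave -0.32 to 0.24 for *Mmp9* and -0.32 to 0.45 for *Mmp13*. *Mmp19* within TdT+ cells was -0.30 in Cdh2-cKO alone. In wild type alone 4 genes were called within TdT- cells.

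For TdT+ against TdT- cells of the CD45- gate, 2 genes were called by voomWithQualityWeights, 2 by DESeq2, 3 without the libraries that stand apart, 0 in wild type alone, 3 in Cdh2-cKO alone and 1 to 3 leaving out single libraries. *Mmp3* was -0.01 without the libraries that stand apart, -0.57 in Cdh2-cKO alone and -0.37 to 0.8 leaving out single libraries, *Mmp11* was -0.49 in Cdh2-cKO alone, *Mmp8* was -0.34 and *Mmp12* -2.60 in wild type alone, and *Mmp12* -0.47 to 2.02 leaving out single libraries. For genotype in TdT-CD45- cells, 1 gene was called by DESeq2 and 0 to 1 leaving out single libraries, and *Mmp12* was 0.15 without the libraries that stand apart and -3.43 to 0.15 leaving out single libraries. For the difference of the CD45 effect between TdT+ and TdT- cells, 1 gene was called without those libraries and 2 in Cdh2-cKO alone, and *Mmp8* was -0.38 in wild type alone.

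Over all populations, libraries with the same replicate number did not all deviate together (correlation over 0.1 in 4 of 15 wild type and 6 of 15 Cdh2-cKO pairs). Between TdT+CD45- and TdT-CD45- cells all 4 such pairs were over 0.1 (0.593 and 0.215 in wild type, 0.113 and 0.166 in Cdh2-cKO), though both TdT+CD45- libraries of a genotype deviate by opposite amounts and so do not count separately. There the block left *Mmp9* as the 1 gene called (2.61, edgeR adjusted p = 0.0325). The replicate block lost the *Mmp9* calls within TdT+ (1.06, edgeR adjusted p = 0.0882) and TdT- cells (-0.93, 0.0832), called *Mmp19* within TdT- cells (-0.56, 0.0385) and changed no other call. Where a TdT+CD45- library was left out, the remaining one was assumed to vary like the other groups.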

Other observations

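The genes whose log2 level was most like that of each protease over the 22 libraries, were found by Pearson correlation. The libraries form a CD45- and a CD45+ cluster and share scaling factors, so r is also given within each and carries no p. *Mmp3* was most like *Col5a1*, a collagen gene, at 0.989 over 22 libraries, 0.876 over 10 CD45- and 0.864 over 12 CD45+ libraries. *Mmp10* was most like *Ccn2*, the connective tissue growth factor gene, at 0.992, 0.916 and 0.85. *Mmp12* was most like *Il1rn*, the interleukin 1 receptor antagonist gene, at 0.987, 0.977 and 0.913. *Mmp2* was most like *Tspan11* at 0.989, but within CD45+ libraries only at 0.676. *Mmp8* was most like *Lactb* at 0.981, and at 0.514 within CD45+ libraries. *Mmp9* had no close partner, its most similar gene being *Hes6* at 0.721.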
